A study of Rattus norvegicus with 6 samples.

Results

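A set of 10 genes of macrophages and of myeloid receptors was followed in primary cultures of neonatal rat heart cells. They are Lyz2, Csf1r, Mrc1, Ptprc, C1qa, C1qb and C1qc, taken as markers of the macrophage lineage, and Cd163, Lilrb3 and Cd300e, taken as genes of macrophage state. Rows of the count table were matched by gene symbol, and 1 unannotated transcript that overlaps Cd163 on its strand was added, which gave 11 of 43035 rows. The members and their split were chosen by their values in the same libraries, so the difference of each member between the groups is a description and carries no test.

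Cardiomyocytes were isolated from the hearts of Sprague-Dawley rats at postnatal day 1 and kept in DMEM (a standard culture medium) supplemented with serum from fetal calves at 10%. The cultures received either a scramble siRNA (si-NC, n = 3) or an siRNA directed at the kinase DYRK1A (si-DYRK1A, n = 3), were collected 48 h after transfection, and were sequenced as mRNA libraries. Both groups shared the same lipid reagent, and the labels describe biological replicates without naming the litters or cultures behind them. Primary heart cultures are enriched for cardiomyocytes and keep other heart cells, and the comparison asks how transcripts differ after siRNA against DYRK1A.

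Macrophages are resident in the heart from fetal life, take up dead cells and debris, and depend on signals through the receptor of colony-stimulating factor. Their identity is read from lineage genes that most of them share, while genes such as haemoglobin scavengers and paired immune receptors vary with the state of the cell. Paired receptors come in inhibitory forms, which recruit phosphatases, and activating forms, which borrow an adaptor such as Tyrobp.

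The libraries held 10325074 to 11921772 counts in si-NC and 10703229 to 11723974 counts in the group labelled si-DYRK1A, and every pair of libraries within a group differed by more than counting noise. The row of Dyrk1a held 0 to 3 counts per library, and an unannotated transcript that covers this gene stood at 77.7 ± 3.22 CPM in si-NC and 82.4 ± 2.70 CPM in si-DYRK1A (mean ± SD, n = 3 each, log2 fold change 0.08, edgeR adjusted p = 0.374). CPM are counts scaled to a common library size after TMM normalisation. The RNA of the targeted gene therefore does not check the labels, and a direction given below is that of the libraries labelled si-DYRK1A. The paper checked its knockdown on DYRK1A protein, by immunoblot of neonatal cardiomyocytes 48 h after transfection. Protein is not part of the data used here. Over the whole table, 2360 of 15513 features tested passed an adjusted p of 0.05 in the quasi-likelihood test of edgeR, with 1245 higher and 1115 lower in si-DYRK1A.

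Promoter windows of 300 bases, from 250 bases before to 50 bases after the gene start, were read from RefSeq on build GRCr8 for 9 of the 10 members, and C1qc was not matched. The windows of the 3 state genes are shown because these genes differed most between the groups, and those of Lyz2 and Ptprc because these are the lineage genes whose libraries did not overlap between the groups. Capitals mark AGGAAG on either strand (CTTCCT where it lies on the other strand), the core of the sites bound by the myeloid factor PU.1 and by other ETS factors.
Lilrb3 (chr1:79011005-79011304, minus strand): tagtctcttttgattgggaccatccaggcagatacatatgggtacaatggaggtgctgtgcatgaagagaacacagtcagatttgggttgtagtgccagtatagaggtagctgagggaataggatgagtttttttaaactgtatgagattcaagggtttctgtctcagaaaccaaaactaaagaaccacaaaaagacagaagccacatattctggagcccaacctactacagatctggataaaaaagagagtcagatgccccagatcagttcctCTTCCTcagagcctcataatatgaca
Cd300e (chr10:100798256-100798555, minus strand): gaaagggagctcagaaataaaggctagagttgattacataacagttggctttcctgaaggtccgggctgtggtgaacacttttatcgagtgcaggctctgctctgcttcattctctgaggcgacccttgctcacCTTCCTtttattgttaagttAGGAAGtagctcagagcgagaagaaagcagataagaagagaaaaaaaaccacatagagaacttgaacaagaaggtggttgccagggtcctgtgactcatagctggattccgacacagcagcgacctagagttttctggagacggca
Cd163 (chr4:158770524-158770823, plus strand): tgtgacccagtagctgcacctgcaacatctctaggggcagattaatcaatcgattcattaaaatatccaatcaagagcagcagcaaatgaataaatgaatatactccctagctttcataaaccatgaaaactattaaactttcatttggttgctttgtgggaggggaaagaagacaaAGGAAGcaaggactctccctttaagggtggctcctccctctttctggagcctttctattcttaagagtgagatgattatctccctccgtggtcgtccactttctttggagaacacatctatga
Lyz2 (chr7:54797962-54798261, minus strand): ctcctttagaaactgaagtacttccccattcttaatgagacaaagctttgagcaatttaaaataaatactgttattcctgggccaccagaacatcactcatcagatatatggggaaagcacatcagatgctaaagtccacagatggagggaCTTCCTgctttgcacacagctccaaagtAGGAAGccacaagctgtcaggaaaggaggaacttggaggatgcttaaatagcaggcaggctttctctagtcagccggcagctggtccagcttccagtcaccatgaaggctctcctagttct
Ptprc (chr13:52259697-52259996, minus strand): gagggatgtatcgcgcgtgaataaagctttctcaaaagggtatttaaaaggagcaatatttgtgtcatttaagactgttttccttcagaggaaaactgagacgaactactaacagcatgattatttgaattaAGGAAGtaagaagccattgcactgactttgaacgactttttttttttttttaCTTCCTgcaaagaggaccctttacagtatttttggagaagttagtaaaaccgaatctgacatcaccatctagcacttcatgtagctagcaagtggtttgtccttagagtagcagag
AGGAAG was found in 8 of the 9 member windows, with C1qa as the exception, and in 34.5% of 33469 RefSeq windows of the same length. The matches lay with their first base at -99 and -71 from the gene start in Lyz2, at -118 and -66 in Ptprc, at -116 and -96 in Cd300e, at -73 in Cd163 and at 24 in Lilrb3. The AP-1 motif TGACTCA occurred in 1 of the 9 windows, that of Cd300e, against 4.63% of all windows. TATAAA occurred in 0 of the 9 windows against 14.2% of all windows. The matches of both motifs in Cd300e do not overlap, both strands were searched, and a match is a description of letters and not of binding. The window of Cd300e lies inside the span that RefSeq gives for this gene. Its positions count from the start used for the window, which is therefore not the outer start of that span.

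Among the lineage genes, Lyz2 was higher in the libraries labelled si-DYRK1A, Ptprc was slightly lower, and the values of the other 5 overlapped between the groups. Among the state genes, Lilrb3 and Cd300e stood near 4 times their si-NC level and Cd163 stood 1.83 times higher. With the edgeR threshold, 4 of the 10 members were called, all 4 of them higher, beside 15.2% of all features tested called in either direction, 8.03% called higher and 7.19% called lower. Groups did not overlap for 5 of the 10 members, beside 31.5% of all features. As the members were selected on this contrast, nothing is read from these counts. In bulk RNA, fewer cells of a type and less RNA per cell cannot be told apart.

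**Figure D1:**
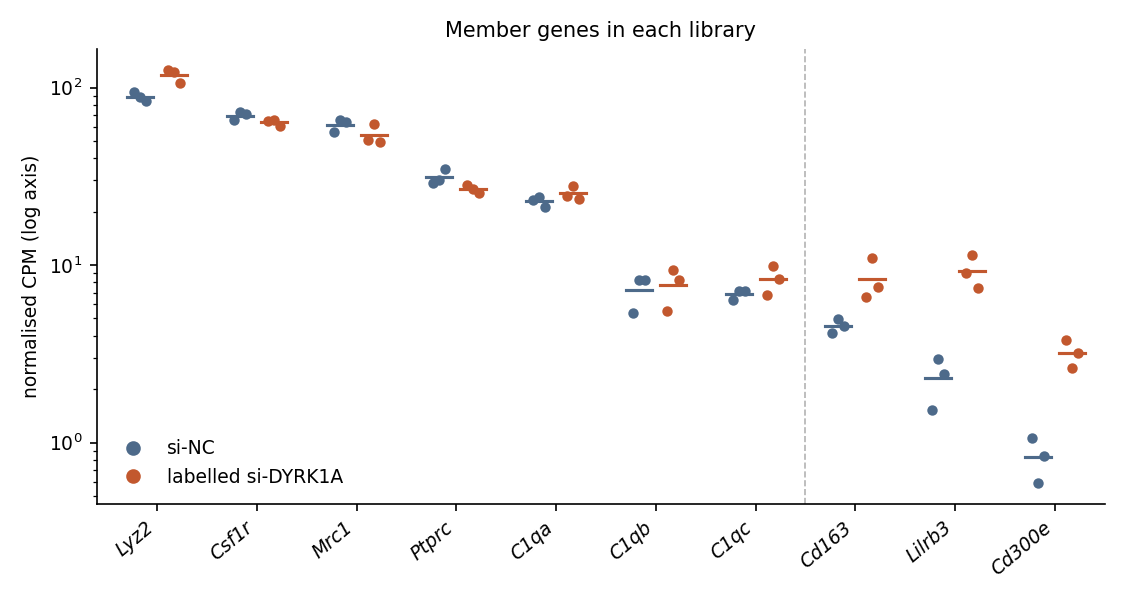
Normalised CPM (log axis) of the 10 members in each of the 6 libraries, with lineage genes left of the dashed line and state genes right of it. Points are libraries and bars are group means. For Lilrb3 the si-DYRK1A libraries lie between 7.44 and 11.4 CPM and the si-NC libraries between 1.53 and 2.96 CPM.

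Positions below are those of the deposited table, on Rnor_6.0 as the paper names it. Lyz2 (ENSRNOG00000005825, chr7:60335969-60341264, minus strand) encodes lysozyme, which cleaves bacterial cell walls and is made in quantity by macrophages. Its level was 94.2, 88.2 and 83.9 CPM in si-NC replicates 1, 2 and 3 and 126, 122 and 106 CPM in the si-DYRK1A replicates. The lowest si-DYRK1A library lay above the highest si-NC library. The fitted log2 fold change was 0.41 (SE 0.0641), a ratio of 1.33. Although grouped with the lineage genes, Lyz2 did not stay level, so the lineage genes are summed with and without it below. The lysozyme gene next to it, Lyc2, held 42 counts over all libraries, and reads shared between near-identical copies could be split by the counting.

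Csf1r (ENSRNOG00000018414, chr18:56414488-56458300, plus strand), the receptor of colony-stimulating factor 1 on which macrophage survival depends, was measured at 65.5, 72.5 and 70.8 CPM in si-NC and 64.6, 65.8 and 60.8 CPM in si-DYRK1A. Values of the groups overlapped, with a fitted difference of -0.13 log2 units (SE 0.0637). Mrc1 (ENSRNOG00000018251, chr17:81352700-81433743, plus strand), the mannose receptor of resident macrophages, stood at 55.9, 65.3 and 63.6 CPM in si-NC and 50.7, 62.3 and 49.7 CPM in si-DYRK1A. Replicate 2 of si-DYRK1A lay within the range of si-NC while the other 2 lay below it, with a log2 fold change of -0.19 (SE 0.0868). The microRNA gene Mir511, inside Mrc1 on the same strand, was listed at 0 in every library. Ptprc (ENSRNOG00000000655, chr13:55061562-55173692, minus strand), the phosphatase carried by leukocytes in general, was 29.1, 30.0 and 34.6 CPM in si-NC and 28.4, 26.8 and 25.6 CPM in si-DYRK1A. Its groups were separated by less than 1 CPM, with a fitted difference of -0.21 log2 units (SE 0.0903).

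The genes of C1q, the recognition protein that starts the classical complement pathway and is made largely by macrophages, lie side by side on chromosome 5. C1qa (ENSRNOG00000012807, chr5:155261250-155264143, minus strand) measured 23.2, 24.1 and 21.2 CPM in si-NC and 24.5, 28.1 and 23.6 CPM in si-DYRK1A. C1qb (ENSRNOG00000012749, chr5:155246447-155252003, minus strand) measured 5.37, 8.29 and 8.19 CPM in si-NC and 5.54, 9.32 and 8.22 CPM in si-DYRK1A. C1qc (ENSRNOG00000012804, chr5:155255005-155258392, minus strand) measured 6.33, 7.10 and 7.11 CPM in si-NC and 6.77, 9.89 and 8.39 CPM in si-DYRK1A. For each of the 3 chains the groups overlapped, replicate 1 of si-NC and replicate 1 of si-DYRK1A were the lowest for C1qb, and replicate 2 was the highest of si-DYRK1A. Their log2 fold changes were 0.15 (SE 0.0963) for C1qa, 0.07 (SE 0.205) for C1qb and 0.28 (SE 0.171) for C1qc. That of C1qb changed sign, to -0.10 without si-NC replicate 1 and to -0.09 without si-DYRK1A replicate 2. The 3 chains are assembled in equal numbers in the protein, but per length C1qb amounted to 0.219 to 0.373 of the FPKM of C1qa over the 6 libraries, and C1qc to 0.262 to 0.342. The ratio of C1qb to C1qc ranged from 0.823 to 1.17.

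Lilrb3 (ENSRNOG00000046683, chr1:73610149-73619356, minus strand) is an inhibitory receptor of myeloid cells whose tail recruits phosphatases. It held 16, 35 and 29 counts in si-NC and 102, 121 and 86 counts in si-DYRK1A, which gave 1.53, 2.96 and 2.42 CPM and 8.97, 11.4 and 7.44 CPM. Each si-DYRK1A library was above each si-NC library, and the means were 2.31 ± 0.720 and 9.27 ± 1.99 CPM (SD, n = 3 each). The fitted log2 fold change was 1.99 (SE 0.230), a ratio of 3.97.

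Cd300e (ENSRNOG00000036726, chr10:103599103-103619083, minus strand) is an activating receptor of monocytes and macrophages that pairs with Tyrobp. It held 11, 7 and 10 counts in si-NC and 43, 28 and 37 counts in si-DYRK1A, or 1.05, 0.592 and 0.836 CPM and 3.78, 2.64 and 3.20 CPM. The groups did not overlap, although the values rest on few reads. The means were 0.828 ± 0.232 and 3.21 ± 0.573 CPM (SD, n = 3 each), with a log2 fold change of 1.95 (SE 0.331) and a ratio of 3.87.

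Cd163 (ENSRNOG00000010253, chr4:156752082-156785467, plus strand) is the scavenger receptor for haemoglobin bound to haptoglobin, and is known to be raised by glucocorticoids and interleukin 10. It held 43, 59 and 54 counts in si-NC and 75, 116 and 87 counts in si-DYRK1A, or 4.12, 4.99 and 4.52 CPM and 6.60, 10.9 and 7.53 CPM. Replicate 2 of si-DYRK1A was far above the other 2 of its group, which in turn lay above si-NC. The log2 fold change was 0.87 (SE 0.199), and it was 0.63 without si-DYRK1A replicate 2. An unannotated transcript of 440 bases on the same strand (chr4:156728347-157144183) overlaps 6 named genes on that strand, Cd163 and the complement protease gene C1r among them. It held 11, 8 and 1 counts in si-NC and 3, 3 and 4 counts in si-DYRK1A, was too low to be tested, and lowered the log2 fold change of Cd163 to 0.74 when its counts were added.

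**Figure D2:**
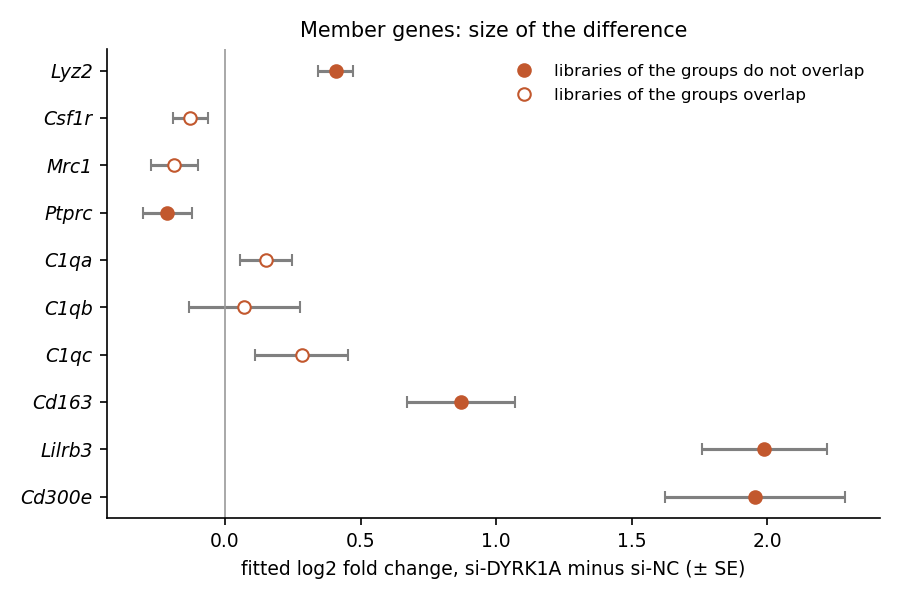
Fitted log2 fold change of each member, si-DYRK1A minus si-NC, with its standard error (bars). Filled points mark members whose libraries do not overlap between the groups. Lilrb3 (1.99) and Cd300e (1.95) lie farthest from 0, and Csf1r, Mrc1 and Ptprc lie between -0.21 and -0.13.

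The 7 lineage genes had a median log2 fold change of 0.07, the 6 without Lyz2 one of -0.03 and the 3 state genes one of 1.95, beside 0.002 for all features tested. It became -0.10 for the 7 lineage genes without si-NC replicate 1 and -0.09 without si-DYRK1A replicate 2. A log2 fold change above that of Cd163, the smallest of the state genes, was found in 2.02% of all features tested. Summed CPM of the 7 lineage genes was 280, 295 and 290 in si-NC and 306, 324 and 282 in si-DYRK1A. The groups overlapped, and without Lyz2 the sums were 199 ± 12.2 and 186 ± 13.9 CPM (SD, n = 3 each). Summed CPM of the state genes was 7.68 ± 0.919 in si-NC and 20.8 ± 3.62 in si-DYRK1A.

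Set against the 6 lineage genes without Lyz2 in the same library, Lilrb3 amounted to 0.828%, 1.43% and 1.18% of their summed CPM in si-NC and to 4.97%, 5.63% and 4.22% in si-DYRK1A. The means differed by a ratio of 4.32, and the groups stayed apart. For Cd300e the share was 0.420 ± 0.142% in si-NC and 1.74 ± 0.402% in si-DYRK1A, a ratio of 4.13. For Cd163 it was 2.28 ± 0.115% and 4.44 ± 0.885%, a ratio of 1.95. Lyz2 went from 44.7 ± 5.33% to 63.3 ± 5.58% of the same sum, a ratio of 1.42. The groups did not overlap in these shares for the 4 genes, and Csf1r made up 34.9 ± 0.447% and 34.3 ± 1.63% of the sum. Both the genes and those they are scaled to were selected on this contrast, so the shares are a description and nothing is read from them.

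Compared per length, as FPKM (fragments scaled by gene length and library, as the authors deposited them), Lyz2 was the most abundant member in si-NC at 74.1 ± 4.13. C1qa (21.7 ± 1.41), Csf1r (17.4 ± 0.964) and Mrc1 (11.7 ± 0.986) followed, and the ranges of these 4 genes over the 3 libraries did not overlap. C1qb (6.69 ± 1.54), C1qc (6.24 ± 0.426) and Ptprc (6.15 ± 0.589) did not differ beyond their spread. Cd163 (1.06 ± 0.105) and Lilrb3 (0.949 ± 0.299) overlapped, and Cd300e was lowest at 0.275 ± 0.0761. In si-DYRK1A the order of the first 4 was the same, with Lyz2 at 98.0 ± 8.89. Lilrb3, at 3.80 ± 0.820, was then above Cd163 (1.94 ± 0.531) in each library, and Cd300e stood at 1.06 ± 0.189. The lowest library of C1qb (5.07) overlapped the range of Ptprc (5.02 to 5.57).

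Covariation within the groups was examined next, since it holds no difference between them. After each group mean had been subtracted from log2 CPM, Pearson's r over the 6 libraries had a median of 0.35 over the 21 pairs of lineage genes and ranged from -0.60 (Lyz2 with C1qb) to 0.90 (C1qb with C1qc). Removing 1 library at a time moved this median between 0.0353 and 0.533. Cd163 varied with Mrc1 (0.91) and C1qc (0.93), and Lilrb3 with Csf1r (0.97). Cd300e went the other way, with -0.81 against Cd163 and -0.83 against Lilrb3, while Cd163 and Lilrb3 gave 0.67 with each other. Each r rests on 6 libraries that share their group mean, and on 7 to 43 counts per library for Cd300e.

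**Figure D3:**
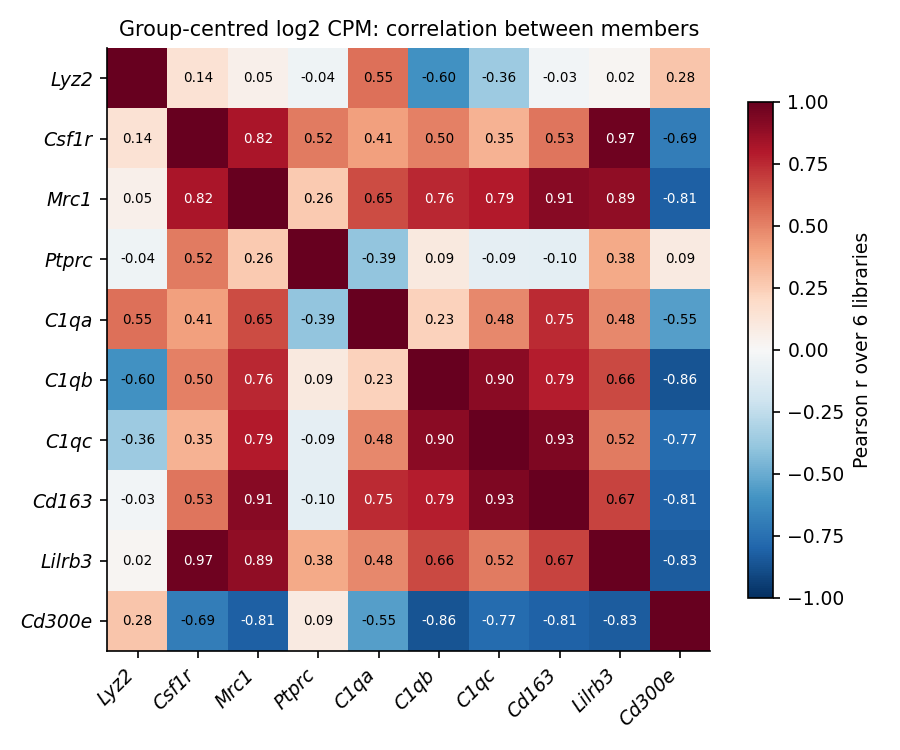
Pearson's r between members over the 6 libraries after each group mean of log2 CPM was subtracted (colour scale from -1 to 1, the diagonal is each gene with itself). Mrc1, Csf1r, Lilrb3, Cd163 and the C1q chains form the red block, and Cd300e is blue against Lilrb3 (-0.83), Cd163 (-0.81) and C1qb (-0.86).

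The genes whose group-centred profile was most like the mean of the 7 lineage genes were Iah1, Sesn1, Naaa, Efna4 and Nek1, with r from 0.989 to 0.998 over the 6 libraries. Of the 8167 genes compared, 41 exceeded 0.95, and these 5 are the highest of that number. For Cd163 the most alike genes were Alkbh2, Tmem82, Acpt, Bcl7a and Igfbp6, for Lilrb3 they were Fam58b, Snx9, Asb4, Map3k21 and Stk40, and for Cd300e they were Clybl, AABR07028027.1, Atl2, R3hcc1l and Ikzf5. Other genes of leukocytes and macrophages did not follow the lineage mean more closely than genes at large. Their median r was -0.02 over 20 genes, with 20% above 0.5, beside a median of -0.02 and 17.2% above 0.5 over all 8167 genes. The lineage mean weighs its 7 genes equally, and C1qb, with 56 to 99 counts per library, deviated most. Its deviation was -0.40 log2 units in si-NC replicate 1 and -0.43 in si-DYRK1A replicate 1.

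The relatives of Lilrb3 and Cd300e were then read, a choice made after the values had been seen. Cd300le (ENSRNOG00000042825, chr10:103581384-103590607, minus strand), the gene beside Cd300e, held 40, 46 and 38 counts in si-NC and 65, 82 and 76 counts in si-DYRK1A. It rose from 3.63 ± 0.397 to 6.67 ± 1.01 CPM, with a log2 fold change of 0.87 (SE 0.198, edgeR adjusted p = 0.00384), and its groups did not overlap. Cd300lb, 5.19 ± 0.312 and 5.11 ± 0.556 CPM, did not pass the test (log2 fold change -0.02, adjusted p = 0.962). Cd300a, Cd300ld and Cd300lf were listed at 0 in every library, and Cd300lg held 17 counts in all. Among relatives of Lilrb3, the log2 fold change was 0.54 for Lilra5 (adjusted p = 0.407) and -0.28 for Lilrb3a (adjusted p = 0.746), with 7 to 22 counts per library. Lilrb3l was listed at 0, and Lilrb4 and Lilrc2 were too low to be tested. The members of both families resemble each other in sequence, so their counts are uncertain where reads could be split between copies.

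**Figure D4:**
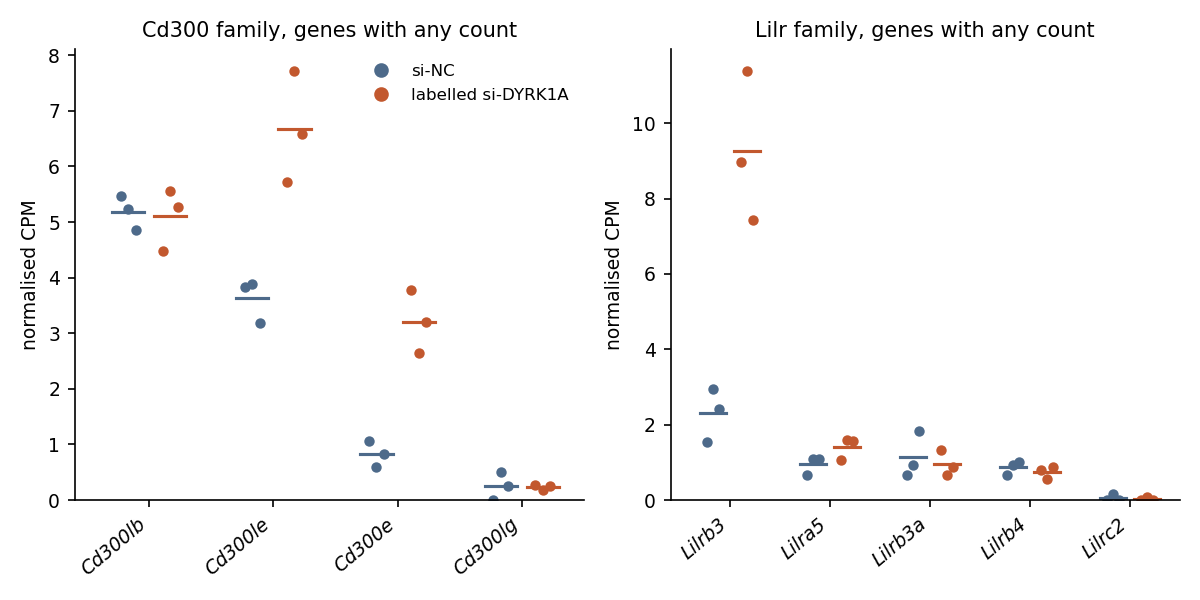
Normalised CPM of the Cd300 and Lilr genes with any count, in each library (points) and as group means (bars), on axes that start at 0. Cd300e, Cd300le and Lilrb3 are separated between the groups, and Cd300lb, Lilra5 and Lilrb3a overlap.

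Genes of 12 lists that surround the members were read from the same edgeR fit, and each change below is a fitted log2 fold change in log2 units. Of 200 symbols 190 were in the table, 35 of these were listed at 0 in every library and 121 could be tested. Adjusted p fell under 0.05 for 31 of them, 11 higher and 20 lower, with a median log2 fold change of -0.08 over the 121 beside 0.002 over all features. These are 25.6% called, 9.09% higher and 16.5% lower, beside 15.2%, 8.03% and 7.19% of all features tested, and the same background applies to the counts of each list below. All gene lists, those of cell markers included, were chosen with earlier results of these data known. The shares and the counts of each list are therefore a description, and nothing is read from their distance to the background. Of the 31 calls, 16 held with each library left out in turn and under the other settings tried, 14 were lost when at least 1 library was left out, and that of Cd80 was lost in the 2 fits of FPKM.

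In the lists of leukocyte and macrophage identity, 23 genes could be tested, of which 1 rose and 6 fell (median log2 fold change -0.17). Pf4, a chemokine of platelets that resident macrophages also express, rose by 0.25 log2 units (SE 0.0581, adjusted p = 0.00592). Rac2, the GTPase of the leukocyte oxidase, fell from 30.7 ± 0.400 to 20.4 ± 2.47 CPM (log2 fold change -0.59, adjusted p = 0.000165). Tlr4, the receptor of bacterial lipopolysaccharide, fell by 0.50 log2 units (adjusted p = 0.00215). Gpnmb, a membrane glycoprotein of phagocytes that other cells express as well, fell by 0.27 log2 units (adjusted p = 6.57e-05). The phosphatase Ptpn6, recruited by inhibitory receptors, fell by 0.38 log2 units (adjusted p = 0.00877, and 0.0679 without si-DYRK1A replicate 1). The exchange factor Vav1 (log2 fold change -0.58, adjusted p = 0.0383) and the costimulatory ligand Cd86 (-1.01, adjusted p = 0.0358, 10 to 30 counts) lost their calls with 5 of the 6 libraries left out in turn. Without those libraries adjusted p was 0.0691 to 0.205 for Vav1 (each except si-NC replicate 3) and 0.0530 to 0.142 for Cd86 (each except si-DYRK1A replicate 3), while that of Pf4 was 0.0583 without si-DYRK1A replicate 2. Cd53, a tetraspanin of leukocytes, gave a log2 fold change of 0.01 (SE 0.0693, adjusted p = 0.969). Slc11a1, a metal transporter of the phagosome, gave -0.27 (adjusted p = 0.0559).

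**Figure D5:**
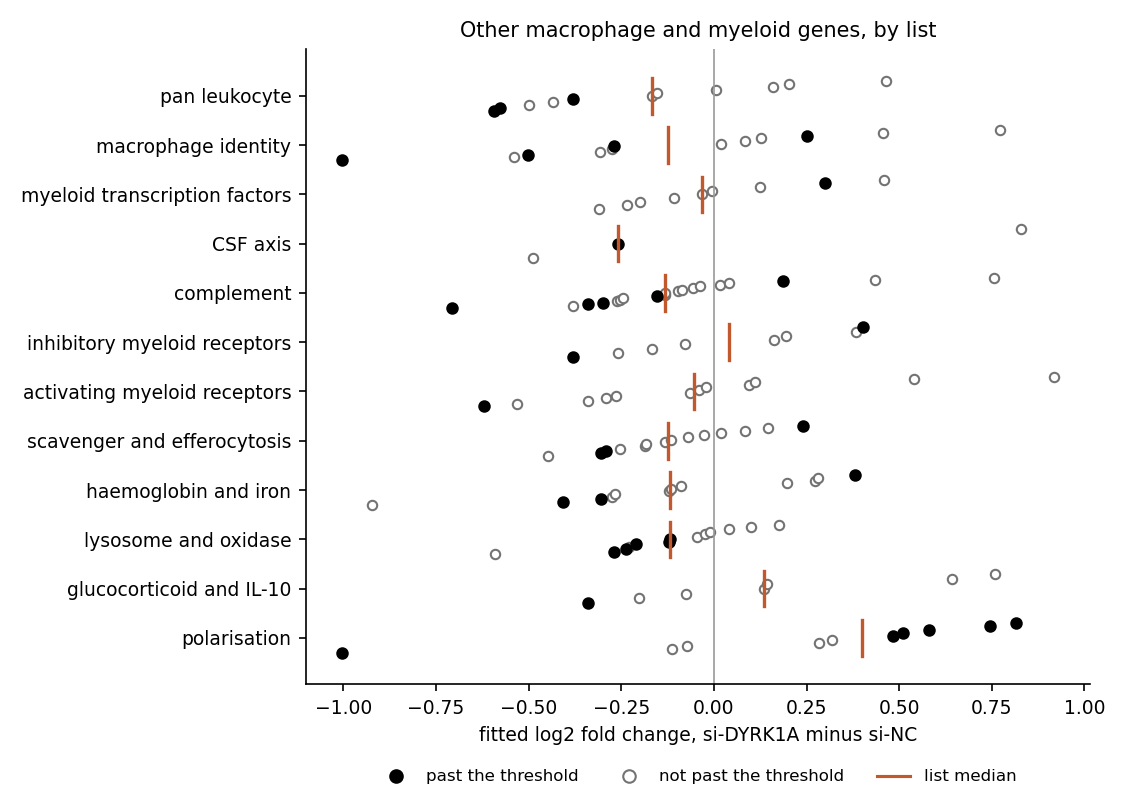
Fitted log2 fold change (si-DYRK1A minus si-NC) of the tested genes of each of the 12 lists, with genes past the edgeR threshold filled and the list median as a bar. A gene held by 2 lists is drawn in both. The polarisation list has 5 filled points above 0 and 1 below, and the lysosome and oxidase list has 5 below 0.

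Among ligands of the macrophage lineage, 0 of 3 tested rose and 1 fell. Csf1, the ligand of Csf1r, fell from 141 ± 7.81 to 117 ± 0.724 CPM (log2 fold change -0.26, adjusted p = 0.00123). Il34, its other ligand, gave -0.49 (SE 0.176, adjusted p = 0.0677). Of 9 transcription factors tested, Cebpb, a factor of macrophage activation, rose by 0.30 log2 units (adjusted p = 0.0106) and 0 fell. Leaving out replicate 1 of si-NC, or replicate 2 or 3 of si-DYRK1A, took the call of Cebpb away (adjusted p = 0.0666 to 0.0764).

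Among inhibitory receptors and their partners, 1 of 8 rose and 1 fell. Fcgr2b, the inhibitory receptor for immunoglobulin G, rose from 44.7 ± 3.99 to 59.2 ± 1.89 CPM (log2 fold change 0.40, adjusted p = 0.000597), and Ptpn6, described above, fell. Among 12 activating receptors and adaptors, 0 rose and 1 fell. Tyrobp, the adaptor that Cd300e uses, was 52.7 ± 2.49 and 51.3 ± 1.68 CPM, with a log2 fold change of -0.04 (SE 0.0686, adjusted p = 0.762). Clec5a, a lectin that also signals through Tyrobp, fell by 0.62 log2 units (adjusted p = 0.0156). That call was lost without si-NC replicate 3 (adjusted p = 0.0549) and without si-DYRK1A replicate 2 (adjusted p = 0.102).

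Around Cd163, the list of haemoglobin and iron handling had 1 gene that rose and 2 that fell among 12 tested. Slc40a1, the iron exporter ferroportin, rose by 0.38 log2 units (adjusted p = 0.0212), and this was lost without si-NC replicate 2 or any 1 of the si-DYRK1A libraries (adjusted p = 0.0633 to 0.0979). Blvra, a biliverdin reductase, fell by 0.41 log2 units (adjusted p = 0.000443). Lrp1, the receptor for haem carried by hemopexin and for many other ligands, fell by 0.31 log2 units (adjusted p = 0.000111). Hmox1, which opens the haem ring, was 258 ± 13.8 and 237 ± 17.3 CPM (log2 fold change -0.12, adjusted p = 0.147). In the list of glucocorticoid and interleukin 10 targets, 1 of 7 fell. The clock gene Per1 fell by 0.34 log2 units (adjusted p = 0.00386). Klf9, a glucocorticoid target, gave 0.14 (adjusted p = 0.101), and Il10 gave 0.64 (SE 0.312, adjusted p = 0.187) on 16 to 39 counts per library.

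Around the C1q genes, 1 of 19 tested complement genes rose and 4 fell. Serping1, the inhibitor of the C1 proteases, rose by 0.19 log2 units (adjusted p = 0.0292). Cfd, a protease of the alternative pathway, fell by 0.71 log2 units (adjusted p = 0.0190). Itgax, a chain of a complement receptor, fell by 0.30 log2 units (adjusted p = 0.00833), and the membrane regulator Cd59 fell by 0.15 log2 units (adjusted p = 0.0266). C1r, the protease that C1q activates, gave -0.06 (SE 0.0400, adjusted p = 0.392). The calls of Serping1, Cfd, Itgax and Cd59 were lost with some library left out. Adjusted p was then 0.0945 to 0.173 for Serping1 (si-NC replicate 3, si-DYRK1A replicate 1 or 2) and 0.0509 to 0.0988 for Cfd (si-NC replicate 1 or 2, si-DYRK1A replicate 1 or 3). It was 0.0525 to 0.0542 for Itgax (si-NC replicate 1, si-DYRK1A replicate 3) and 0.0653 to 0.131 for Cd59 (each library except si-NC replicate 2).

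Around Mrc1, 1 of 14 scavenger and efferocytosis genes rose and 2 fell. Gas6, which bridges dead cells to their receptors, rose by 0.24 log2 units (adjusted p = 0.000191), and Pros1, a bridge of the same family, fell by 0.29 log2 units (adjusted p = 4.89e-05), as did Lrp1, described above. Around Lyz2, 0 of 13 lysosome and oxidase genes rose and 5 fell. The protease Ctsz fell by 0.21 log2 units (adjusted p = 0.00354). The protease Lgmn fell by 0.12 log2 units (adjusted p = 0.0475), the membrane protein Lamp1 fell by 0.12 log2 units (adjusted p = 0.0409), and Gpnmb, described above, fell as well. Lgmn and Lamp1 lost their calls with 5 of the 6 libraries left out in turn, where adjusted p was 0.0679 to 0.155 for Lgmn (each except si-NC replicate 3) and 0.0569 to 0.197 for Lamp1 (each except si-NC replicate 1). The abundant cathepsins Ctsb, Ctsd and Ctsl gave -0.01, 0.04 and -0.05 and did not pass.

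Of 10 genes used to grade macrophage polarisation, 5 rose and 1, Cd86, fell, beside 8.03% and 7.19% of all features. Arg1, the arginase of repair macrophages, rose from 38.7 ± 3.46 to 64.9 ± 6.65 CPM (log2 fold change 0.75, adjusted p = 2.97e-06). Il6, an inflammatory cytokine, rose from 9.17 ± 0.629 to 16.1 ± 0.280 CPM (0.82, adjusted p = 6.30e-05). Tgm2, a transglutaminase, rose by 0.51 log2 units (adjusted p = 5.79e-08), and the prostaglandin synthase Ptgs2 rose by 0.48 log2 units (adjusted p = 1.35e-05). The costimulatory ligand Cd80 rose by 0.58 log2 units (adjusted p = 0.00740) on a row of 734 counts. An unannotated transcript covering 95.3% of Cd80 on its strand held 1257 counts and did not pass (log2 fold change 0.16, adjusted p = 0.386). Il6, Tgm2 and Ptgs2 are also made by fibroblasts and other heart cells.

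Some list genes were listed at 0, among them Spi1, Cd68, Ctss and Folr2. An unannotated transcript over Ctss held 751 counts, while those over Spi1, Cd68 and Folr2 held 0, so a row at 0 is not read as absence. Unannotated transcripts covered at least 50% of 55 genes of the lists above on their strand, and a reading of these was added after seeing the data. Of 22 such transcripts tested, 1 rose and 5 fell, beside 8.03% of all features tested called higher and 7.19% called lower. The transcript over Maf, a factor of resident macrophages, rose by 0.33 log2 units (adjusted p = 0.00442). That over Msr1, a scavenger receptor, covered 56.2% of the gene and fell by 0.35 log2 units (adjusted p = 0.00103). The annotated rows of Maf (455 counts) and Msr1 (654 counts) were not called. The transcript over Socs3, a feedback inhibitor of cytokine signals, fell by 0.83 log2 units (SE 0.0774, adjusted p = 3.79e-07). That over complement C7 fell by 0.50 log2 units (SE 0.0619, adjusted p = 1.09e-05). The others lay over Lilrb4 (log2 fold change -0.69, adjusted p = 0.0451) and over the kinase Syk (-1.13, adjusted p = 0.0200), and both calls were lost with single libraries left out, where the highest adjusted p was 0.159 for Lilrb4 and 0.0956 for Syk.

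Markers of several other cells that the cultures could hold moved with the groups. The 8 monocyte markers in the table, of 10 listed, summed to 8.25 to 9.81 CPM in si-NC and 11.3 to 12.5 CPM in si-DYRK1A, with Ccr2 at 0 and 0 of 3 tested called. Neutrophil markers (10 of 10 in the table, Ltf at 0) summed to 7.94 to 8.54 CPM and 5.28 to 6.51 CPM, with Camp lower among the 1 tested (adjusted p = 0.0187). Dendritic markers (8 of 8, Clec10a and Siglech at 0) summed to 10.2 to 11.3 CPM and 7.79 to 9.94 CPM, and Zbtb46 was called lower among the 2 tested (adjusted p = 0.0462). The calls of Camp and Zbtb46 were lost with single libraries left out, where the highest adjusted p was 0.112 and 0.125. Camp (6.16 ± 0.555 and 3.76 ± 0.661 CPM) made up most of the neutrophil sum, where 9 of 10 markers averaged under 1 CPM. Zbtb46 (9.05 ± 0.428 and 6.56 ± 0.191 CPM) made up most of the dendritic sum, where 7 of 8 did. Markers of mast cells (7 of 8, Fcer1a at 0) summed to 92.3 to 103 CPM and 116 to 117 CPM. Kit (64.6 ± 3.82 and 70.9 ± 2.97 CPM) and Hdc (32.3 ± 2.36 and 44.3 ± 2.24 CPM) made up most of this sum. Of the 7 mast cell markers, 4 averaged under 1 CPM. Hdc was called higher among the 3 tested (edgeR adjusted p = 0.000395). Kit (log2 fold change 0.13, adjusted p = 0.181) and Mcpt2 (-0.09, adjusted p = 0.917) were not called. T and NK cell markers (11 of 12, Ncr1 at 0) and B cell markers (6 of 6) overlapped, at 5.71 to 8.20 CPM and 0.440 to 1.27 CPM over both groups, as did those of the red cell and platelet lineages (7 of 9), at 9.36 to 13.3 CPM. Cardiomyocyte markers (11 of 12, Tnni3, Myh6, Myh7 and Myl2 at 0) summed to 19152 to 19623 CPM and 22195 to 23076 CPM, fibroblast markers (9 of 10, Pdgfra at 0) to 21577 to 26291 CPM and 20417 to 21153 CPM, endothelial markers (8 of 9) to 180 to 199 CPM and 149 to 155 CPM, and mural markers (8 of 8, Acta2, Myh11 and Abcc9 at 0) to 148 to 188 CPM and 184 to 191 CPM. Macrophage markers other than the members (22 of 23 in the table, Cd68, Folr2, Csf2ra and Csf2rb at 0) summed to 1861 to 1894 CPM and 1554 to 1686 CPM, and without Gpnmb to 270 to 290 CPM and 285 to 324 CPM. Of the tested markers, 3 of 5 rose and 0 fell for cardiomyocytes, 2 of 7 rose and 0 fell for fibroblasts, 0 of 8 rose and 3 fell for endothelial cells, and 0 of 3 were called for mural cells. The difference in the fibroblast sum rests largely on Col1a1, 14341 ± 1917 and 11113 ± 196 CPM (adjusted p = 0.0869), while 6 of the 7 fibroblast markers tested had a positive log2 fold change (median 0.14). The cardiomyocyte sum rests largely on Actc1 (9976 ± 92.5 and 10880 ± 192 CPM) and Nppa (7557 ± 371 and 9782 ± 475 CPM). Their log2 fold changes were 0.13 and 0.37, and 6 of the 11 cardiomyocyte markers averaged under 1 CPM. Rows at 0 are not read as absence of a gene, since unannotated transcripts over Myl2 and Abcc9 held 388 and 691 counts. Such transcripts do not enter these sums and counts of calls. Those over Rgs5 (log2 fold change 0.55, edgeR adjusted p = 1.34e-05) and Dcn (1.00, adjusted p = 0.0311, 9 to 42 counts) were called higher. That over S100a4 (-1.49, adjusted p = 0.0317, 4 to 22 counts) was called lower. The part of other cell types in the values of the members was not tested.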

How the data were processed

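RNA-seq libraries of 6 rat cardiomyocyte cultures, 3 si-NC and 3 si-DYRK1A, were grouped by their labels. The labels give rats of postnatal day 1, and the paper's methods rats of 1 to 2 days. The authors deposited raw counts per gene, and FPKM values that they scaled by gene length and library. The paper gives paired-end reads mapped to Rnor_6.0 with HISAT2, whereas the submitters' processing notes name Bowtie 0.12.2 and mm8. Positions of members are those of the deposited table and are given as Rnor_6.0. The paper names a NEBNext library kit and the labels a TruSeq kit. For the counting, the tool, annotation and strand setting were not given in the sources used here, so reads of overlapping or near-identical genes may be misplaced. Of 43035 rows, 10353 carried no gene name and 17.2% to 17.6% of the counts per library, and were kept because each has an identifier. There were 0 per-sample columns without a sample.

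Counts were tested over the whole table with edgeR 4.0.16 under R 4.3.3 by its quasi-likelihood test (TMM, robust fit, filterByExpr with a minimum count of 10 in 3 libraries and a total of 15). The test was two-sided, with Benjamini-Hochberg adjustment over 15513 features and a threshold of 0.05. All 10 members passed this filter, and a member that is high in 1 group can pass through that group. Members entered this fit with all features, but no p is given for them and the number past the threshold is a description. Some single genes of the lists enter the counts and are not reported here. The members and all gene lists were chosen with earlier results of these data known. Genes named were the members, the called genes and the 3 with the highest FPKM of each pathway list (those that add to the account), the 3 highest and the 0-count genes of the cell lists, and the 5 genes most alike by group-centred correlation (log2 CPM with a prior count of 2). Promoter windows and motifs were read from RefSeq tables of build GRCr8. In 3 simulations of 15513 features with 200 changed, the edgeR step recovered 71.8% of changes of 1 log2 unit, 53.8% of those among low counts and 36.7% of changes of 0.5, and 9.10% of its calls were false.

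Alternatives were the tool (DESeq2 1.42.0), the scaling (upper-quartile, RLE or library size alone), the filter (none, or 10 counts as the minimum of each library), a block for the replicate number, limma 3.58.1 on log2(FPKM + 1) and log2(FPKM + 0.1) with a minimum FPKM of 0.5, and each library left out in turn. Added after seeing the data were the sum of Cd163 with its overlapping transcript, the lineage sum without Lyz2, the transcripts covering list genes and the gene families. With 3 libraries a group, an exact permutation test cannot give a p below 0.1. Counting error is largest for Cd300e and Lilrb3, and replicate spread includes it.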

Additional observations from a re-analysis of the deposited data

How the results depend on the processing

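Of 15513 features, 2360 were called by edgeR, 1571 by DESeq2 (821 higher), 1199 by limma on log2(FPKM + 1) (662 higher, 537 lower) and 1180 on log2(FPKM + 0.1) (655 higher, 525 lower). With 1 library left out, the count was 1614 to 2210 (854 to 1123 higher, 746 to 1087 lower), and fewer libraries entered each fit. Scaling by library size only moved the split to 1063 higher and 1339 lower. The 31 calls among other myeloid genes became 18 in both FPKM fits (6 higher, 12 lower) and 24 to 30 with 1 library left out (7 to 11 higher, 14 to 20 lower, with 7 higher without si-DYRK1A replicate 2). Of the members, 3 to 5 were called over the alternatives. Cd163 lost its call in both FPKM fits and without si-DYRK1A replicate 2. Cd300e had no adjusted p with DESeq2 and was not tested with at least 10 counts in every library. Mrc1 was called lower in 2 settings. As above, nothing is read from the number of members called. The cause of these differences between tools was not tested.

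The median log2 fold change of the state genes was 1.95, 1.76 to 1.96 with 1 library left out, 1.43 with at least 10 counts in every library, where Cd300e was not tested, and 0.69 on log2(FPKM + 1), a scale that shrinks low values. That of the lineage genes was -0.10 to 0.18 with 1 library left out. The log2 ratio of summed lineage CPM was 0.08, 0.03 to 0.13 with 1 library left out, and -0.10 without Lyz2. Median covariation ranged from 0.0353 to 0.533.

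Over the alternatives that gave a value, the log2 fold change ranged from 0.36 to 0.48 for Lyz2, 1.30 to 2.20 for Lilrb3, 0.50 to 1.02 for Cd163 and 0.69 to 2.15 for Cd300e, lowest on log2(FPKM + 1) for the latter 3. Deviations of libraries with the same number correlated at 0.06, -0.03 and -0.00409, which shows no pairing by number and cannot exclude one. Among the members, replicate 1 deviated in the same direction in both groups for Lyz2, Mrc1, Cd163, C1qb, C1qc, Lilrb3 and Cd300e. It deviated in opposite directions for Csf1r, C1qa and Ptprc. In replicate 2 only Lyz2 differed in direction. Whether such shared deviations enter the r values given above was not tested. With the replicate number as a block, 2269 features were called (1193 higher) and 31 other myeloid genes, 29 of them shared. The planned sum with transcripts overlapping a member and no other named gene changed nothing, since no member has one. In all, 264 values stayed within the spread or 1.5 times the count and 24 moved.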

Other observations

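The transcript antisense to Cd163, unannotated and 3001 bases long, held 42, 59 and 58 counts in si-NC and 65, 30 and 49 counts in si-DYRK1A, with a log2 fold change of -0.12 (SE 0.234, edgeR adjusted p = 0.805). This transcript spans chr4:156728347-157155609 and overlaps 6 annotated rows on its own strand, so its reads may belong to other genes. Replicate 2 of si-DYRK1A was the highest library for Cd163 and the lowest for the transcript on the other strand, and a link between them was not tested. Whether strand was used in the counting is not given in the sources used here, so reads of the 2 strands may not be told apart.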
